A study of Drosophila melanogaster with 8 samples.

Results

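The genes described here encode the subunits of Mediator and TFIID, the large complexes that act at the promoters of protein-coding genes. They were taken by name: every annotated gene whose symbol begins with MED or Taf followed by a digit, together with skd, kto, CycC and Cdk8, the kinase module of Mediator. This gave 44 genes of 13945 annotated protein-coding genes, 29 for Mediator and 15 for TFIID. KDM5 binding was measured by Targeted DamID (TaDa), in which a bacterial methylase, Dam, marks GATC sites near the protein it is fused to. The 8 samples fell into Dam:KDM5, carrying UAS-LT3-damkdm5, and Dam alone, carrying UAS-LT3-dam, with 4 samples in each, made from 100 pooled wandering larvae of the third instar that were homogenized whole. All of them carried spok-Gal4, which drives expression in the prothoracic gland, the larval source of ecdysone, and tub-Gal80[ts], which blocks Gal4 until larvae are warmed. Transgenes were switched on by 2 days at 29°C after 5 days at 18°C, and neither genotype lists a Kdm5 mutation. The files used here hold a single averaged profile of Dam:KDM5 relative to Dam alone, so no value below carries a replicate error, none was tested, and the depth of each sample is unknown. The profile holds no RNA measure, and the labelled cell type was not checked against markers.

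Mediator relays signals from DNA-bound transcription factors to RNA polymerase II. Its head and middle modules touch the polymerase, its tail receives most activators, MED14 runs through the complex as a backbone, and a detachable module of Cdk8, CycC, kto (MED12) and skd (MED13) regulates it. TFIID recognizes the core promoter through TBP and the TBP-associated factors (Tafs), many of which pair through histone folds. In flies Cdk8 and CycC interact with the ecdysone receptor, and kto and MED24 are needed for steroid responses of the larval salivary gland. KDM5 is a demethylase for trimethylated lysine 4 of histone H3, a mark of active promoters that mammalian TAF3 binds.

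Genes were called bound when they stood on the deposited gene list, which holds genes overlapped by a peak. A total of 27 of the 44 genes were bound (61.4%), where 38.5% of all protein-coding genes were. For Mediator the count was 20 of 29 (69%) and for TFIID 7 of 15 (46.7%). The list gives each gene a binding score, which for all 27 genes was that of the highest peak in the gene body. Its log base is not stated. The median score was 5.46 for the bound Mediator genes (2.29 to 8.55) and 3.68 for the bound TFIID genes (2.72 to 5.6), and 4.75 for all listed protein-coding genes. Scores above 4.75 were found for 11 of 20 bound Mediator genes and 1 of 7 bound TFIID genes. Taf4 was the TFIID gene above this median.

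**Figure D1:**
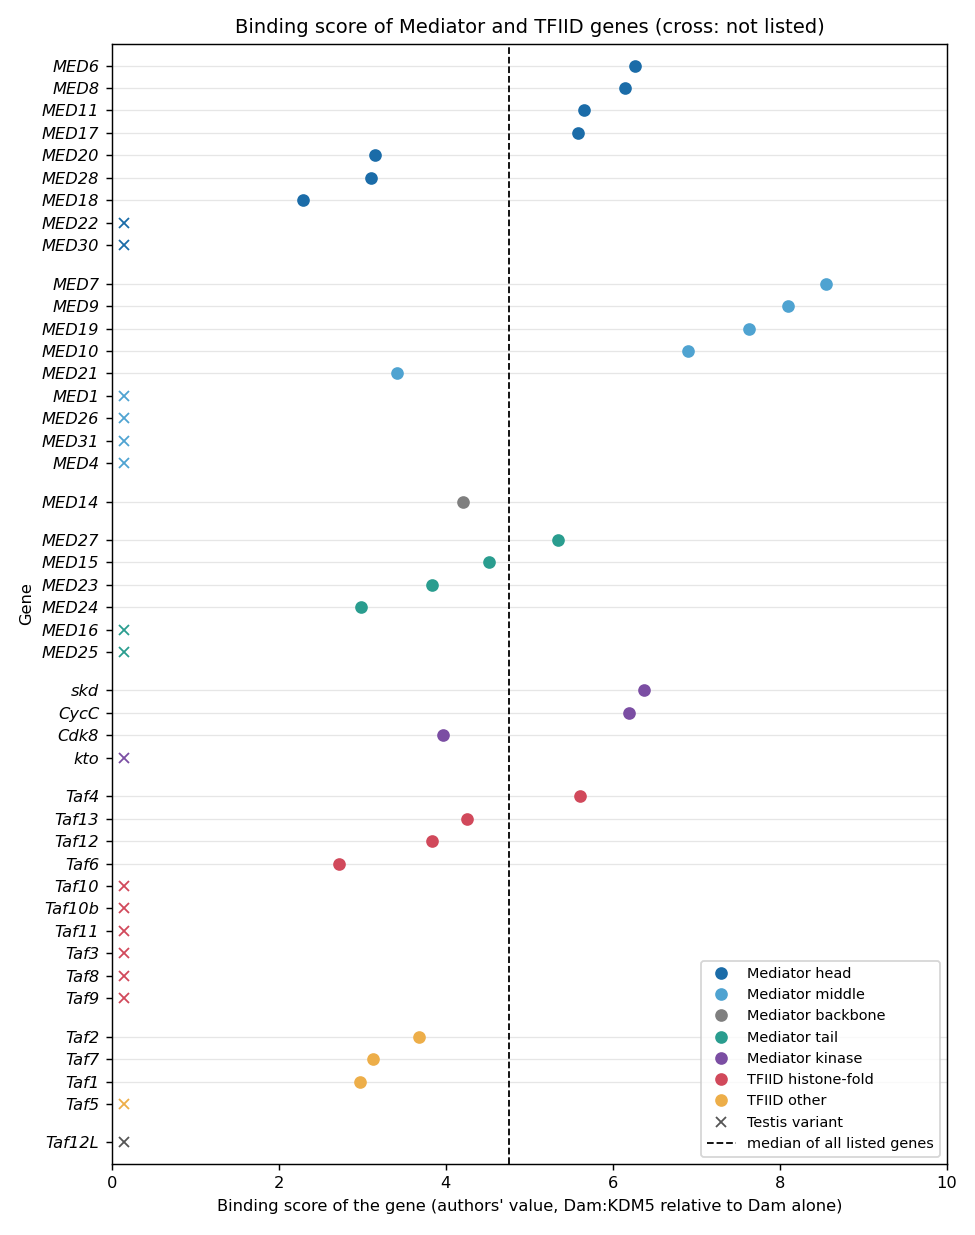
Binding score of each gene on the x axis (the authors' value, Dam:KDM5 relative to Dam alone), by module or class on the y axis. Circles are genes on the deposited list, crosses are genes that were not listed and have no score, and the dashed line marks 4.75, the median of all listed protein-coding genes. The 4 highest circles, from 6.9 to 8.55, belong to the Mediator middle module.

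Among the Mediator modules the middle module held both the highest scores and the most unbound genes. Of its 9 genes 5 were bound, at a median of 7.63. MED7, which with MED21 forms the hinge of the module, scored 8.55, and its peak (3R, 10760379 to 10762218, dm6) ranked 82 of 4931 by score. The peak covered the start of MED7 and that of its divergent neighbor Cap-H2, a condensin subunit, whose start lay 11 bp from the peak center. MED9 scored 8.1 (2R, 18167773 to 18169121). Its peak began 518 bp into the gene, ran past its 3′ end and also overlapped Dgp-1 and CG42518. MED19, which contacts Hox proteins in flies, scored 7.63, and its peak (3L, 17844746 to 17845985) lay wholly inside the gene, with 347 bp of coding exon and 893 bp of intron, and overlapped no other protein-coding gene. MED10 scored 6.9 (3L, 16231244 to 16232349) through a peak at its start that it shared with PDCD-5. MED21 scored 3.41, and its peak spanned the whole gene and part of Set1, which encodes an H3K4 methyltransferase. MED1, the main contact of nuclear receptors in mammals, MED4, MED26 and MED31 were not bound.

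In the head module 7 of 9 genes were bound, at a median of 5.58. The leading genes were MED6 at 6.26 (3R, 9767233 to 9768779), MED8 at 6.14 (2R, 20325469 to 20326634), MED11 at 5.65 (3L, 18746144 to 18747559) and MED17, a central head subunit, at 5.58 (3R, 18187113 to 18189507). The MED6 peak lay wholly within MED6, in 883 bp of its 5′ untranslated exons and 538 bp of intron, and also overlapped Naa80. MED17 held a second peak of 3.44 at its 3′ end (3R, 18190467 to 18191603). MED20 scored 3.15, MED28 3.1 and MED18 2.29, the lowest score of the 27, and the peaks of MED18 and MED28 covered these small genes from end to end together with parts of 2 neighbors each. None of the head module genes held a peak that overlapped no other gene. MED22 and MED30 were not bound.

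The backbone gene MED14 scored 4.2. Its peak (3L, 593581 to 594653) began 335 bp inside the gene, lay 946 bp in coding exons and overlapped no other gene. Of 6 tail genes 4 were bound, at a median of 4.18. MED27 scored 5.34 (3R, 5655786 to 5656976) and MED15, which binds SREBP factors in worms and mammals, scored 4.52 from the widest peak of the set, 4923 bp (2L, 469702 to 474624). That peak was centered 37 bp from the start of CG4297. MED23 was listed at 3.83 through an overlap of only 11 bp at its 3′ end (2R, 22894415 to 22895257), 5487 bp from its start, in a peak that covered the start of CG3700. MED24 scored 2.98 (3L, 8193950 to 8196423), with the peak 2680 bp from its start. MED16 and MED25 were not bound. MED23 and MED24 thus held no peak within 1 kb of a start.

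Of the 4 kinase module genes 3 were bound. The MED13 gene skd, the longest of the set at 34621 bp, held 3 peaks, none of which overlapped another protein-coding gene. The highest, at 6.37 (3L, 21010709 to 21012276), lay 13928 bp from the nearest skd start and was intronic in 1502 of its 1568 bp. The next, at 5.91 (3L, 21024767 to 21027343), covered an annotated start, and the last, at 4.28 (3L, 21006574 to 21009808), was again mostly intronic. CycC scored 6.19 through a peak (3R, 14889998 to 14891100) that reached 207 bp into the gene and covered the start of UQCR-C1, a subunit of respiratory complex III. Its partner Cdk8 scored 3.97 in a peak of 707 bp that lay entirely in its own coding sequence (3L, 9837548 to 9838254). The MED12 gene kto was not bound. The peak closest to the kto body scored 10.04 and lay 2080 bp away, over Papss, which makes the sulfate donor PAPS.

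**Figure D2:**
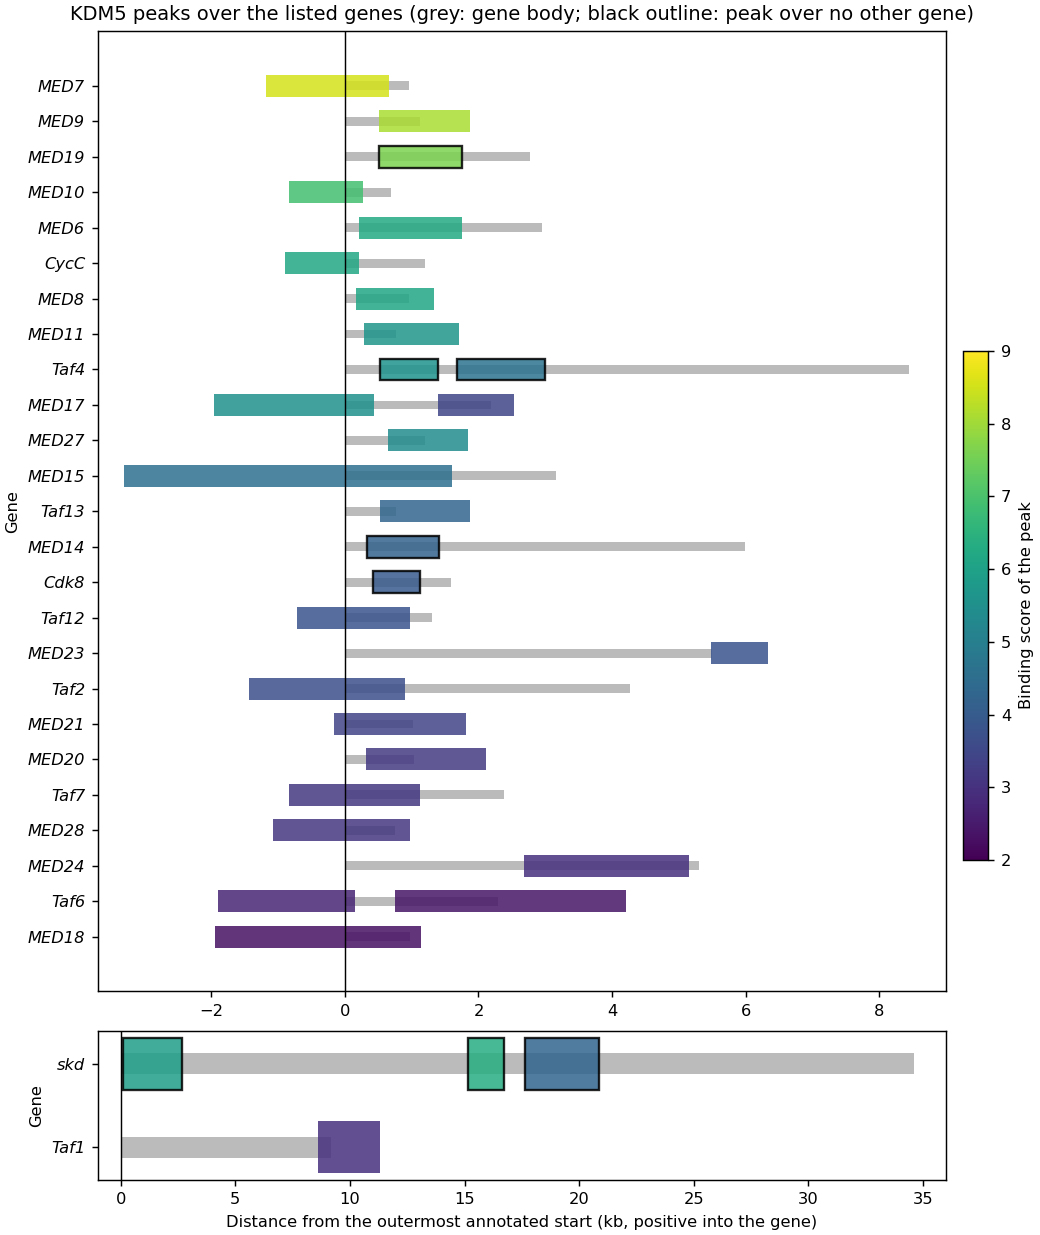
Peaks of the 27 bound genes, drawn as bars at their distance in kb from the outermost annotated start of each gene, with the gene body in gray below and the color giving the peak's binding score. Black outlines mark peaks that overlapped no other protein-coding gene, found for MED19, Taf4, MED14, Cdk8 and skd. The lower panel has its own scale for the long genes skd and Taf1.

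Of the 15 TFIID genes 7 were on the list, and the difference from the 20 of 29 Mediator genes was not tested. Among the histone-fold Tafs 4 of 10 were bound (40%), close to the 38.5% of all protein-coding genes. Taf4, a core scaffold, scored 5.6 and held 2 peaks of its own. The first (3L, 16113742 to 16114613) covered an annotated start with 516 bp of 5′ untranslated exon, and the other, at 4.67 (3L, 16114886 to 16116212), was intronic in 984 of 1327 bp. Taf12, the histone-fold partner of Taf4, scored 3.83 (3R, 11678709 to 11680413), so both genes of this pair were bound. In the other pairs binding was found for 1 partner or for neither, and no pattern among pairs was tested. Taf13 scored 4.25 while Taf11 was not listed, Taf6 scored 2.72 while Taf9 was not listed, and Taf3, Taf8, Taf10 and Taf10b, which pair among themselves, were all unlisted. The peak at the start of Taf6 (3L, 19597189 to 19599244) reached 156 bp into the gene and covered the start of ash1, a chromatin regulator. A second peak of 2.41 (3L, 19599843 to 19603296) covered its 3′ end.

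Of the 4 Tafs outside the histone-fold group 3 were bound, with scores from 2.97 to 3.68. Taf2, which contacts the Initiator element, scored 3.68 (3L, 9887785 to 9890119) in a peak centered 152 bp from the start of CalpB, a calpain. Taf7, a partner of Taf1, scored 3.13 (3R, 7906493 to 7908460) in a peak that also covered the start of EMC1. The largest subunit gene, Taf1, scored 2.97 from a peak that lay 8593 bp from its start, at the 3′ end (3R, 6655482 to 6658219), and covered the starts of CG1307 and twr. Taf5 was not bound, nor was Taf12L, a testis variant that the naming rule also catches. TFIID without Taf12L stood at 7 of 14. TBP itself (Tbp, 5.84) and the Mediator subunit gene ix (MED29, 5.85) do not carry such symbols, and both were listed.

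Because 2 genes can share a peak, binding was counted again under stricter assignments. The highest peak of a bound gene overlapped another protein-coding gene in 22 of the 27 genes (81.5%), and in 59.8% of all 5402 genes with a peak in the body. In 15 of the 27 it covered the start of another gene, which was not counted over all genes, so no share stands beside it. The annotated start nearest to the center of the peak belonged to the member itself in 11 of 27 cases (40.7%), against 68.1% over all genes with a peak. The 11 were Cdk8, MED6, MED8, MED11, MED14, MED19, MED21, MED27, skd, Taf4 and Taf12. MED9 tied with CG42518, which has the same annotated start, 1192 bp from the peak center. The order of gene IDs settled the tie, so only CG42518 was counted there. When only the gene nearest each peak was counted as bound, 11 of 44 genes remained (25%), MED9 left out by that tie. This was close to the 29% of all protein-coding genes. With peaks that overlapped no other gene, 5 of 44 remained (11.4%, and 16.9% of all genes). Under neither of these rules was the share of members above that of all genes, as it was on the list. The counts were small and these differences were not tested. With peaks at or above the median peak score of 4.55 the count was 12 of 44 (27.3%, and 20.8% of all genes), 11 of them Mediator genes.

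Other rules changed the total less. Overlap of the annotated gene body by at least 1 bp called 27 of 44 genes (38.7% of all genes), overlap by at least 200 bp called 26 (36.9% of all genes), with MED23 lost, and peaks with an FDR below 0.001 called 26 (33.2% of all genes), with MED14 lost. A peak within 1 kb of an annotated start was present for 29 of 44 (65.9%, and 39.9% of all genes). By this last rule TFIID reached 11 of 15 (73.3%) and Mediator 18 of 29 (62.1%), so the order of the complexes was the reverse of that on the list.

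**Figure D3:**
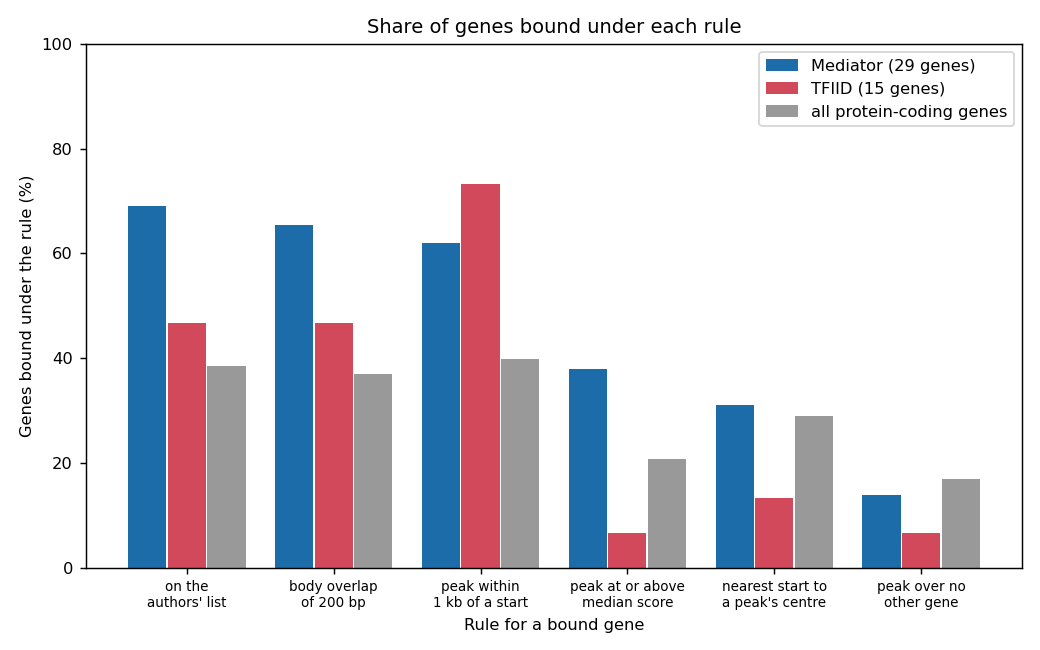
Percent of genes bound (y axis) under 6 rules (x axis) for the 29 Mediator genes, the 15 TFIID genes and all 13945 protein-coding genes, each bar starting at 0. Mediator stands at 69% on the list and at 13.8% with peaks over no other gene, where all protein-coding genes stand at 16.9%. TFIID is highest, at 73.3%, when a peak within 1 kb of a start is counted.

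The 17 unbound genes lay from 5 to 88899 bp from the nearest KDM5 peak, and the distances of Mediator and TFIID genes overlapped. All unbound TFIID genes but Taf12L lay within 1253 bp of a peak, and 5 of them, Taf3, Taf5, Taf10, Taf10b and Taf11, had a peak within 1 kb of a start. Taf10b missed the list by 5 bp. A peak of 7.98 over aph-1, a gamma-secretase subunit (2L, 2766408 to 2767281), ended just before the 3′ end of Taf10b, and was 609 bp from Taf10, which is transcribed divergently from Taf10b. Taf9 lay 112 bp from a peak of 5.27 over CG8142 at its 3′ end, but 1299 bp from a peak by its start. The remaining distances from the gene body were 641 bp for Taf5, 709 bp for Taf11, 960 bp for Taf3 and 1253 bp for Taf8. Taf12L was 88899 bp from the nearest peak.

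None of the 9 unbound Mediator genes had a peak within 1 kb of a start. The nearest peak lay 1144 bp from the body of MED31, 1186 bp from MED1, 1225 bp from MED25, 1453 bp from MED4, 2655 bp from MED16, 3190 bp from MED30 and 6721 bp from MED22. MED26, on chromosome 4, was 82446 bp away from a peak, and Taf3, the other gene on that chromosome, was unbound as well. Chromosome 4 carried 19 peaks in all, and 20 of its 80 protein-coding genes were listed (25%).

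**Figure D4:**
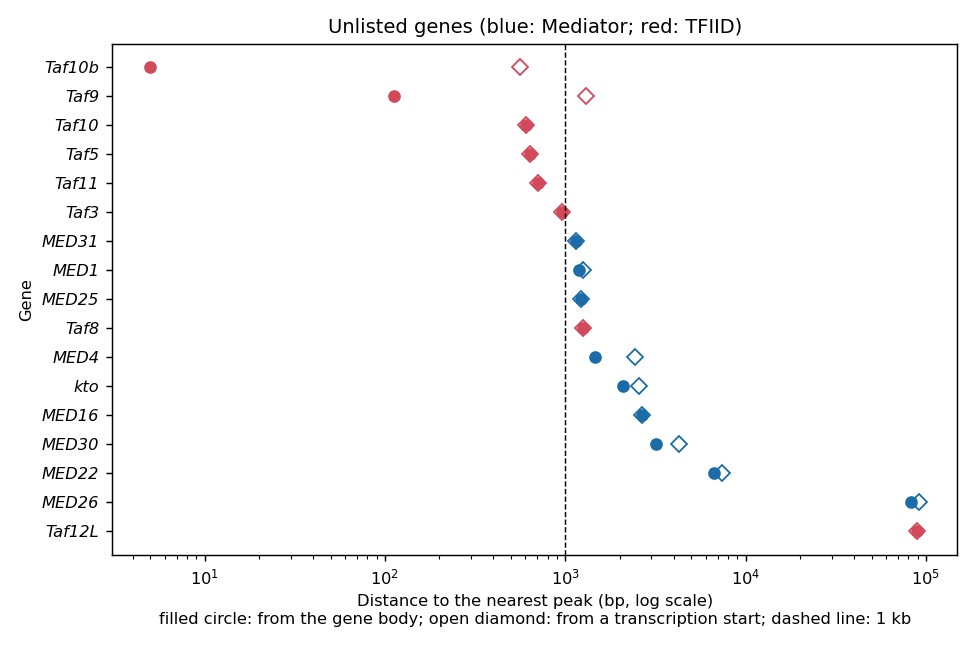
Distance in bp, on a log axis, from each of the 17 unbound genes (y axis) to the nearest peak, measured from the gene body (filled circles) and from an annotated start (open diamonds), with Mediator in blue, TFIID in red and a dashed line at 1 kb. Taf10b lies 5 bp from a peak, MED26 82446 bp and Taf12L 88899 bp.

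Peaks began and ended at GATC sites. The peak edges next to the unbound genes Taf10b and Taf9 are shown with the GATC in capitals, on the plus strand of the RefSeq Release 6 genome, which is dm6. In the first the annotated 3′ end of Taf10b follows the GATC (chr2L:2767267-2767296), and in the other the peak over CG8142 begins there (chrX:17843446-17843475).
Taf10b edge: ttcccaaaacacaGATCttaagatacatta
Taf9 edge: agccaaggtccatGATCtgcagatactcgg
GATC sites were not sparse near the starts of the unbound genes. A window of 1 kb to either side of the start held a median of 7 sites in bound genes (1 to 12), 7 in unbound genes (4 to 11) and 6 over all protein-coding genes. Within the gene body the medians were 8 and 5 sites, with 1 site in MED22, none in Taf10 and 2 in the bound gene MED28. The part of GATC spacing in the calls was not tested.

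Many of the 44 genes lay close to a neighbor. A gene on the other strand started within 500 bp upstream of 26 of them (59.1%), as for 25% of all protein-coding genes, and 33 (75%) lay less than 100 bp from a neighbor, as 55.6% of all genes did. Among genes with such a divergent start, 17 of the 26 members were bound (65.4%) and 60% of all such genes. Among the rest, 10 of 18 members (55.6%) and 31.3% of all genes were bound. The stricter rules differed between these arrangements. With each peak given to the gene of the nearest start, 5 of the 26 divergent members (19.2%) were bound, MED9 left out by its tie. Among all divergent genes 38.6% were bound. The values were 6 of the other 18 members (33.3%) and 25.8% of all other genes. Peaks over no other gene were held by 2 of the 26 (7.69%, and 20.3% of all divergent genes) and by 3 of the 18 (16.7%, and 15.8% of all other genes). Shares below the genome were found for the divergent members only, on counts of 5 and 2 genes, and the differences were not tested. The part of this arrangement in the shared peaks was not tested. By length, 7 of 13 members under 1 kb were bound, where 17.3% of all genes of that length were, as were 12 of 19 from 1 to 3 kb (37.7% of all genes) and 8 of 12 of 3 kb or longer (49.9%). The bound members included genes as short as MED10 at 694 bp.

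Promoter windows from 250 bp upstream to 50 bp downstream of the outermost start were searched on both strands for core promoter motifs, as a description of the sequences. The DRE (TATCGATA), bound by the housekeeping factor DREF, was found in 8 of 44 windows (18.2%) and in 9.36% of all windows. It occurred in 6 of the 27 bound members and 2 of the 17 unbound members. Over all genes it was found in 14.7% of bound and 6.04% of unbound genes. The core of Ohler motif 1 (GGTCACAC), bound by M1BP, was found in 12 of 44 (27.3%), 7.7% of all and 13.2% of all bound genes. It occurred in 10 of the 27 bound members (MED8, MED10, MED11, MED15, MED19, MED20, MED23, MED24, Taf1 and Taf4) and in 2 of the 17 unbound members (MED22 and Taf5). The longer consensus of this motif, which contains the core, was found in 8 of 44 windows (4.5% of all) and Ohler motif 6 in 5 (2.23% of all). The E-box CACGTG, to which Myc binds, was found at MED17 only (4.2% of all windows). Motifs of regulated promoters went both ways. GAGAG in 7 windows (15.9%, and 29.7% of all) and the Initiator core TCAGT in 12 (27.3%, and 51.5% of all) stood below the genome's share. The TATA box string TATAAA stood above it, in 24 (54.5%, and 45.8% of all). These short strings were counted anywhere in the window, so they do not mark a positioned TATA box or Initiator.

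The upstream DRE stretches that lie outside annotated exons are given from the same genome. They are on the strand of the gene, with the DRE in capitals. At MED17 (chr3R:18189012-18189071), MED18 (chrX:1865836-1865895) and MED28 (chr3R:25476916-25476975) the DRE lay under the peak described for the gene. At the unbound MED25 (chr3R:20008887-20008946) and Taf3 (chr4:466830-466889) it lay under none, as their distance to the nearest peak required. Of the 8 genes with a DRE, MED7, MED8 and MED9, all bound, are not shown. The peak nearest the MED9 start lay 518 bp away, so its DRE lay under none. The MED8 peak began 172 bp inside the gene, beyond the window, so the MED8 DRE lay outside that peak too. The MED7 peak covered the whole window and thus the DRE. The stretches shown therefore do not compare bound with unbound genes.
MED17: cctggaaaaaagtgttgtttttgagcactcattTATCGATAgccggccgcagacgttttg
MED18: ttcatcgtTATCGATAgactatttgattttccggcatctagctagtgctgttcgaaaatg
MED28: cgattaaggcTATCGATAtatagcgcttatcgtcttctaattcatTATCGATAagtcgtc
MED25: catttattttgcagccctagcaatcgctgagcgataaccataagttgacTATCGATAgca
Taf3: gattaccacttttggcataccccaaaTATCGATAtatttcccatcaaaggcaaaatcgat
The motif ended 20 bp before the start of MED17, 58 bp before that of MED18, 4 bp before that of MED25 and 28 bp before that of Taf3. MED28 carried 2 copies.

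Other parts of the transcription machinery were counted beside Mediator and TFIID, without a test. Of all protein-coding genes 38.5% were on the list. Of 18 general transcription factor genes 8 were bound (44.4%), at a median score of 4.26. Ssl1, a TFIIH subunit, was the highest at 6.4, and TfIIA-S, TfIIA-S-2, TfIIFalpha, TfIIFbeta, Xpd, hay, Tfb4, Tfb5, CycH and Mat1 were unbound. RNA polymerase II subunits were bound in 6 of 12 cases at a median of 4.24, led by the largest subunit gene Polr2A at 7.83, with Polr2B, Polr2E, Polr2F, Polr2G, Polr2H and Polr2L unbound. In the SAGA coactivator 6 of 17 genes were bound (35.3%) at a median of 5.4, Spt7 the highest at 8.77. Its unbound genes were Gcn5, Ada3, Spt3, Ada1-1, Ada1-2, Nipped-A, not, e(y)2, Sgf11, Sf3b5 and Sf3b3. Of the Tafs that SAGA shares with TFIID in flies, Taf9, Taf10b and Taf12, only Taf12 was bound.

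Pausing and elongation factors were bound in 10 of 16 cases (62.5%) at a median of 4.08, led by the ELL gene Su(Tpl) at 7.72, and Cdk9, ear, Hexim, TH1, spt4 and Cdk12 were not bound. Of 7 testis Tafs and TBP relatives only Trf2 was bound (3.8), with nht, can, mia, sa, Taf12L and Trf unbound. The share of Mediator genes on the list, 69%, was the highest of these groups, that of elongation factors was next, and TFIID at 46.7% stood between the general factors and polymerase II. This order also held with body overlap of at least 1 bp or 200 bp. With an FDR below 0.001 Mediator (65.5%) and elongation factors (56.3%) still led, where 33.2% of all genes were bound. TFIID (46.7%) then stood above both the general factors (38.9%) and polymerase II (33.3%). The order differed under the other rules. By nearest start, elongation factors stood at 37.5%, Mediator at 31% and all protein-coding genes at 29%. With peaks over no other gene elongation factors stood at 25%, Mediator at 13.8% and all genes at 16.9%. Within 1 kb of a start TFIID led at 73.3%, with elongation factors at 62.5%, Mediator at 62.1% and all genes at 39.9%. The differences among these small groups were not tested.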

How the data were processed

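Reads had been aligned to dm6 by the authors, who ran damidseq_pipeline to set each Dam:KDM5 sample against Dam alone, averaged the replicate profiles, and used find_peaks on that average (FDR threshold 0.01, min_quant 0.9). The sources used here name these tools without a version. The deposited binding score is a value per peak relative to Dam alone, and the 3 deposited sheets give it per gene name, per FlyBase ID and per peak. Of 5815 distinct IDs, 5799 were found in the Ensembl release 115 annotation by ID and 11 by name. All 4931 peaks began and ended within 4 bp of a GATC of dm6, so dm6 positions are given, counted from 1. Python 3.11.15 and pandas 2.3.3 were used. Distances were measured to annotated transcription starts. Counting was tested on simulated data.

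The genes, lists and motifs were chosen with earlier results of these data known. All genes of the naming rule are accounted for: the 12 with the highest scores and those with 2 or more or distant peaks in full, unbound genes by their distance. For the comparison lists the highest and the unbound genes are named. The rule matched symbols by case, so TAF1B, a factor of RNA polymerase I, was not a member, and e(y)1 is annotated as Taf9.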

Additional observations from a re-analysis of the deposited data

How the results depend on the processing

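The count of 27 bound genes stayed within 1.5 times under 6 of 9 alternatives, from 26 to 29: body overlap by 1 bp or by 200 bp, FDR below 0.001, a peak within 1 kb of a start, ix and Tbp added, and Taf12L left out, the last chosen after the data were seen. Leaving out Taf12L could not change the count, since it was unlisted, and adding ix and Tbp could not lower it. Overlap by 1 bp is close to how the list was made. The count moved to 11 (Mediator 9, TFIID 2) with each peak given to the gene of the nearest start, to 12 (Mediator 11, TFIID 1) with peaks at or above the median score, and to 5 (Mediator 4, TFIID 1) with peaks over no other gene. The 11 leave out MED9, which tied with CG42518. TFIID moved from 7 to 11 with peaks within 1 kb of a start, since 5 unlisted genes gained and Taf1 was lost. The median score of bound genes, 4.25, was 4.52 with the peak nearest a start and 5.6 over the 5 genes with a peak of their own. A start lay within 1 kb of a peak in 65.9% of the 44 genes (39.9% of all genes), within 250 bp in 36.4% (26.1% of all) and within 2 kb in 77.3% (47.1% of all). No paired analysis was possible because the files used here hold 1 averaged profile, and leaving out replicates could not be done for the same reason. The depth behind each score is unknown.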
